A study of Mus musculus with 12 samples.

Results

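The 10 genes described here set the passage of a cell through G1, and were followed in 12 RNA libraries of C3H/10T1/2, a mouse embryonic line of fibroblast shape. They are the D-type cyclins Ccnd1, Ccnd2 and Ccnd3, their kinase partners Cdk4 and Cdk6, the INK4 inhibitors Cdkn2a, Cdkn2b and Cdkn2c, and the CIP/KIP inhibitors Cdkn1b and Cdkn1c. The genes were taken by name from a list of G1 cyclin, kinase and inhibitor genes, with the Ensembl identifiers of the count files matched to mouse symbols. That list was chosen with earlier results of these data known. Shares of all tested genes given beside it below are therefore a description and not independent support. All 10 were present among the 47643 genes listed, and 9 passed the filter on low counts. The exception was Cdkn1c, with 4 counts over the 12 libraries.

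Cells were transfected transiently, without a virus, with 1 of 4 plasmids, giving 3 libraries per group. BMP2ADV, the reference named by the submitters, carries bone morphogenetic protein 2 (BMP2). BMP2ADV20a, BMP2ADV148b and BMP2ADV590 are hybrid vectors, whose names give the numbers of miR-20a, miR-148b and miR-590. Every group therefore received a BMP2 plasmid with the polymer reagent TurboFect, the medium was changed 4 hours later, and RNA was taken after 3 days. The labels class the line as sarcoma. An untransfected or mock-transfected group was not analysed here, so each comparison is between plasmids. Transient transfection reaches only some of the cells, and these bulk libraries average over cells that did and did not take up a plasmid.

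D cyclins bind CDK4 or CDK6, and the active kinases phosphorylate the retinoblastoma protein and its relatives, which releases E2F transcription factors and lets S phase begin. INK4 proteins block CDK4 and CDK6 before the cyclin can bind, while p27 (Cdkn1b) and p57 (Cdkn1c) bind whole cyclin-kinase complexes. In mesenchymal cells, leaving the cycle often accompanies differentiation. The mRNA level says nothing directly about the amount or activity of these proteins.

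The mature miRNAs named by the first pair of hybrid vectors are shown because their seeds, bases 2 to 8 in capitals, define the 7-base sites searched in the cyclin and inhibitor transcripts. The sequences are from RefSeq on GRCm38.p6, and the arms do not share a seed.
miR-20a-5p: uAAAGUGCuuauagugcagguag
miR-20a-3p: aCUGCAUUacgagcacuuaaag
miR-148b-3p: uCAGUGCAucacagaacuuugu
miR-148b-5p: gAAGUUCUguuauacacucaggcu
No sequence is given for miR-590. The complement of the miR-20a-5p seed, GCACTTT, occurred in the longest annotated 3' UTR of Ccnd1 and of Ccnd2, and in 15.1% of the 11576 such UTRs of tested genes. The site of miR-20a-3p, AATGCAG, occurred in Cdkn2b and Cdkn1b and in 13.5% of UTRs. The site of miR-148b-3p, TGCACTG, occurred in 0 of these 10 genes and in 15.7% of UTRs. The site of miR-148b-5p, AGAACTT, occurred in Ccnd2, Cdk6, Cdkn1c and, at 2 positions, Cdkn1b, and in 15.7% of UTRs. The miR-20a-5p sites in the D cyclins are shown with the site in capitals, on the minus strand at chr7:144931676-144931682 for Ccnd1 and chr6:127129340-127129346 for Ccnd2 (GRCm38).
Ccnd1: tccatttcaaaGCACTTTtggtcagctagc
Ccnd2: ccattagaaaaGCACTTTgaaaattttggg
A match of these letters is a description of the transcript and does not show that the miRNA binds there.

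Libraries held 9236431 to 14727288 gene counts, and the 9 mesenchymal fibroblast markers examined, Col1a1, Thy1 and Pdgfra among them, were each above 1 normalised count per 1e6 counts (CPM). Of 5 markers each, 3 macrophage, 2 neural, 1 endothelial, 1 epithelial and 0 skeletal muscle markers were above 1 CPM. Their sums over the libraries were 5.09 to 9.22 CPM (macrophage), 77.8 to 117 (neural), 5.50 to 12.6 (endothelium), 1.16 to 3.18 (epithelium) and 0 to 1.125 (skeletal muscle). The markers at 0 in all 12 libraries were Adgre1 (macrophage), Sox10 (neural), Cdh5 (endothelium), Krt8 and Cldn7 (epithelium) and Myod1 and Ckm (skeletal muscle). On the first principal component of all tested genes the BMP2ADV590 libraries stood apart from the others, at 21.8 to 30.2 against -25.3 to 6.42. On the second component these BMP2ADV590 libraries were spread widely, at 22.6, -23.4 and 9.63, against -24.0 to 12.4 in the others. As a check of the labels, the Mir148b gene had 630 counts in BMP2ADV148b and 0 in the other groups. No label says if a group's libraries stem from different cultures, so p-values measure only the spread between these libraries, which may be technical. Levels below are normalised CPM, with the mean ± SD of 3 libraries. Each log2 fold change is from edgeR's quasi-likelihood fit of all 12 libraries, and adjusted p-values are Benjamini-Hochberg over 13229 genes, called under 0.05.

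Against BMP2ADV, the BMP2ADV590 libraries held less RNA of 1 D cyclin and 2 INK4 inhibitors: Ccnd1 at 0.613-fold, Cdkn2a at 0.721-fold and Cdkn2b at 0.706-fold of the reference level. These 3 of the 9 tested genes fell and 0 rose, where 8.26% of all tested genes were called, 3.89% as lower and 4.37% as higher. The median log2 fold change of the 9 was -0.17, against 0.00195 for all tested genes. The libraries of BMP2ADV590 and BMP2ADV did not overlap for 5 of the 9, Ccnd1, Ccnd2, Ccnd3, Cdkn2a and Cdkn2b, each lower in BMP2ADV590, where 25.1% of all tested genes did not overlap in either direction and 12.5% were lower without overlap. In these bulk samples, less RNA per cell and fewer cells that express a gene cannot be told apart. Summed endothelial markers were 5.50 to 6.80 CPM in BMP2ADV590 and 7.84 to 12.6 CPM in BMP2ADV, and summed neural markers 77.8 to 85.8 and 100.3 to 109 CPM. These markers summed to 6.85 to 9.11 (endothelial) and 81.1 to 89.1 CPM (neural) in BMP2ADV148b. In BMP2ADV20a these markers summed to 8.17 to 12.1 and 90.9 to 117 CPM. Their part in these differences was not tested.

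**Figure D1:**
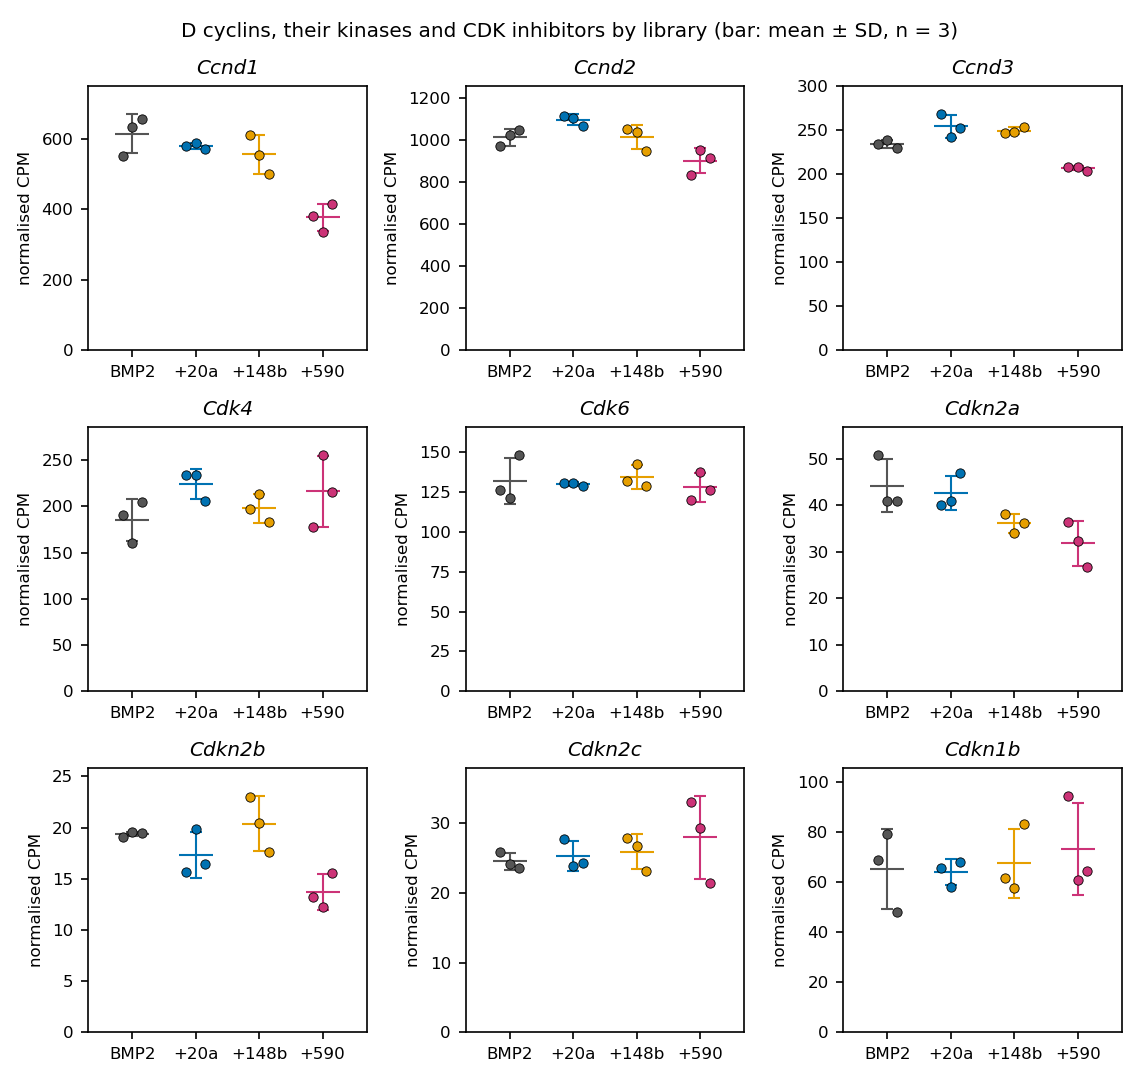
Normalised CPM (vertical axes, each starting at 0) of the G1 genes in every library, by group (horizontal axes). BMP2 marks BMP2ADV and the plus signs its hybrids, points are libraries, and bars are the mean ± SD of 3. The Ccnd1 points of BMP2ADV590, from 335.6 to 413.6 CPM, lie below every other library.

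Ccnd1, cyclin D1, is the D cyclin best known as a target of growth factor signalling. It lies on the minus strand at chr7:144929931-144939925 (ENSMUSG00000070348, GRCm38). Its levels were 552, 634 and 656 CPM in BMP2ADV, 580, 586 and 571 CPM with BMP2ADV20a, 610.2, 554 and 500.4 CPM with BMP2ADV148b, and 380.5, 336 and 414 CPM for BMP2ADV590. All 3 BMP2ADV590 libraries were lower than all 9 of the others, and those 9 overlapped between their groups. The log2 fold change of BMP2ADV590 was -0.70 against BMP2ADV (SE 0.0879, 95% interval -0.89 to -0.52, adjusted p = 1.56e-05 by edgeR). It was -0.62 against BMP2ADV20a (SE 0.0878, adjusted p = 0.000719) and -0.56 against BMP2ADV148b (SE 0.0879, adjusted p = 0.000303). These comparisons share the BMP2ADV590 libraries and are not independent of each other. In all of the 19 alternative settings Ccnd1 passed the threshold in each of these 3 comparisons, with a highest adjusted p of 0.0123. The 3' end of Ccnd1 overlaps LTO1 on the opposite strand, whose log2 fold change against BMP2ADV was -0.21 (adjusted p = 0.568).

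Ccnd2, cyclin D2 (ENSMUSG00000000184, chr6:127125162-127152193, minus strand), reached 969.8, 1021 and 1048 CPM in BMP2ADV and 1115, 1106 and 1068 CPM in BMP2ADV20a. It stood at 1053, 1039 and 948 CPM in BMP2ADV148b and at 835, 951 and 915 CPM in BMP2ADV590. The BMP2ADV590 libraries lay below all of those of BMP2ADV and BMP2ADV20a, and overlapped those of BMP2ADV148b. Ccnd2 fell in BMP2ADV590 relative to BMP2ADV20a (log2 fold change -0.28, SE 0.0715, adjusted p = 0.035 by edgeR). Against BMP2ADV its log2 fold change was -0.17 (adjusted p = 0.16) and against BMP2ADV148b -0.17 (adjusted p = 0.207), neither past the threshold. The call against BMP2ADV20a was lost in 7 of 19 alternatives, with adjusted p of 0.165, 0.116 and 0.0575 without BMP2ADV20a replicates 1, 2 and 3, and of 0.124 and 0.0869 without BMP2ADV590 replicates 1 and 3.

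Ccnd3, cyclin D3 (ENSMUSG00000034165, chr17:47505051-47599691, plus strand), varied little within groups. Its levels were 234, 239 and 229.7 CPM in BMP2ADV, 268, 242 and 252 CPM with BMP2ADV20a, 246, 248 and 254 CPM with BMP2ADV148b, and 209, 208 and 204 CPM for BMP2ADV590. As with Ccnd1, the 3 BMP2ADV590 libraries were the lowest of the 12. Ccnd3 fell in BMP2ADV590 relative to BMP2ADV20a (log2 fold change -0.30, SE 0.071, adjusted p = 0.0261 by edgeR) and relative to BMP2ADV148b (-0.27, SE 0.0713, adjusted p = 0.028). Against BMP2ADV it was -0.18 with adjusted p = 0.128 by edgeR, and 0.0499 by DESeq2. Each call was lost in 7 of 19 alternatives. For BMP2ADV20a the adjusted p was 0.177, 0.0536 and 0.0575 without its replicates 1, 2 and 3, and 0.0552 and 0.0991 without BMP2ADV590 replicates 1 and 3. For BMP2ADV148b it was 0.0769, 0.0708 and 0.066 without its replicates 1, 2 and 3, and 0.0996 without BMP2ADV590 replicate 3. The 3' end of Ccnd3 overlaps Bysl on the opposite strand, whose log2 fold change against BMP2ADV was -0.27 (adjusted p = 0.108). The counting strand is not given in the sources, so reads of the overlap cannot be assigned.

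**Figure D2:**
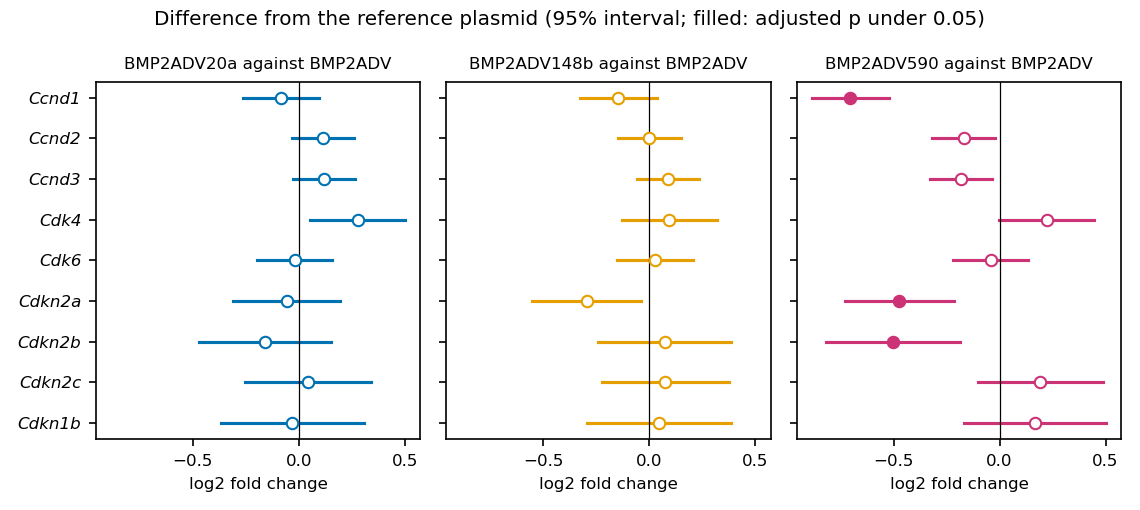
Log2 fold change of each tested G1 gene (horizontal axis) with its 95% interval, for each hybrid group against BMP2ADV. The interval of Ccnd1 in BMP2ADV590 against BMP2ADV lies wholly below 0, from -0.89 to -0.52.

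The makeup of D cyclin counts differed between the groups. Shares are of the summed Ccnd1, Ccnd2 and Ccnd3 counts of a library, from 3' tags with no length term, and are compared between groups, not between genes. Ccnd1 made up 32.9% ± 1.33 in BMP2ADV, 30.01% ± 0.407 with BMP2ADV20a, 30.5% ± 1.32 with BMP2ADV148b and 25.4% ± 2.54 for BMP2ADV590 (SD, n = 3 each). Its share was 22.5% to 27.0% over the BMP2ADV590 libraries and 29.4% to 33.9% over the 9 others, with no overlap. The share of Ccnd2 was 60.7% ± 2.63 in BMP2ADV590 and 54.4% ± 0.689 in BMP2ADV, although its CPM was lower. The summed level of the D cyclins was 1484 ± 55.1 CPM in BMP2ADV590 and 1861 ± 93.0 CPM in BMP2ADV. These shares carry no test of their own.

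**Figure D3:**
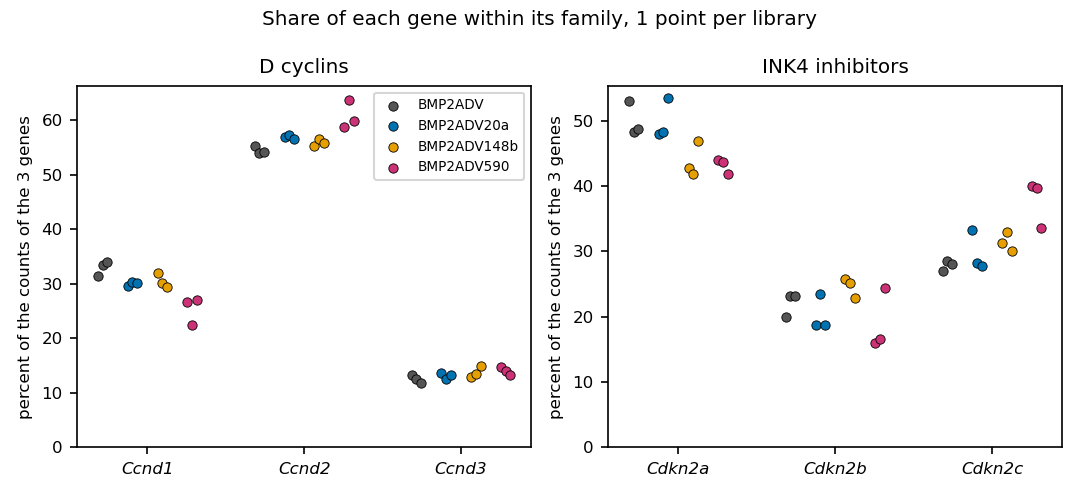
Percent of each library's summed D cyclin counts, and of its summed Cdkn2a, Cdkn2b and Cdkn2c counts, that each gene made up (vertical axis, from 0), by plasmid group. Points are libraries; the Ccnd1 share was 22.5% to 27.0% in BMP2ADV590, below the 29.4% to 33.9% of the 9 other libraries.

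The kinases did not move with the cyclins past the threshold. Cdk4 (ENSMUSG00000006728, chr10:127063534-127067920, plus strand) averaged 185 ± 22.4 CPM in the reference group, with 225 ± 16.2 for BMP2ADV20a, 198 ± 15.5 for BMP2ADV148b and 216 ± 38.5 for BMP2ADV590. Its BMP2ADV590 libraries, at 178, 255 and 215.5 CPM, spread over nearly the whole range of the 12. The log2 fold change against BMP2ADV was 0.22 (95% interval -0.00 to 0.45, adjusted p = 0.238 by edgeR). It passed the threshold only when BMP2ADV590 replicate 1 was left out (0.34, adjusted p = 0.0434). Tspan31, which overlaps the 3' end of Cdk4 on the opposite strand, had a log2 fold change of 0.14 (adjusted p = 0.509). Cdk6 (ENSMUSG00000040274, chr5:3341485-3531008, plus strand) had group means from 128 to 134 CPM, and its log2 fold change against BMP2ADV in BMP2ADV590 was -0.04 with a 95% interval of -0.22 to 0.14. A change of Cdk6 as large as that of Ccnd1 lies outside that interval.

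Among the INK4 inhibitors, Cdkn2a (ENSMUSG00000044303, chr4:89274471-89294653, minus strand) encodes p16Ink4a and, in another reading frame, p19Arf, which stabilises p53. Its coding transcripts begin at 89282192 and 89294653 and end at 89274471 and 89274541, so tags at the 3' end do not separate the products. The levels were 50.7, 40.8 and 41.0 CPM in BMP2ADV, 40.1, 40.9 and 46.9 CPM with BMP2ADV20a, 38.1, 34.0 and 36.1 CPM with BMP2ADV148b, and 36.4, 32.2 and 26.8 CPM for BMP2ADV590. The BMP2ADV590 libraries were below those of BMP2ADV and BMP2ADV20a, and overlapped those of BMP2ADV148b. Cdkn2a fell against BMP2ADV (log2 fold change -0.47, SE 0.124, 95% interval -0.73 to -0.22, adjusted p = 0.0178 by edgeR). The call was lost without BMP2ADV replicate 1 (adjusted p = 0.106) and without BMP2ADV590 replicate 3 (0.116). Against BMP2ADV20a the log2 fold change was -0.42 (adjusted p = 0.086, with 0.045 without BMP2ADV590 replicate 1 and 0.0395 with no low-count filter) and against BMP2ADV148b -0.18 (adjusted p = 0.528).

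Cdkn2b, p15Ink4b (ENSMUSG00000073802, chr4:89306299-89311039, minus strand), is the neighbour of Cdkn2a and is known for its induction by TGF-beta. Its libraries gave 19.1, 19.5 and 19.4 CPM in BMP2ADV, 15.6, 19.9 and 16.5 CPM with BMP2ADV20a, 23.0, 20.4 and 17.6 CPM with BMP2ADV148b, and 13.3, 12.3 and 15.6 CPM for BMP2ADV590. The BMP2ADV590 libraries were again the lowest of the 12, the highest of them barely below the lowest BMP2ADV20a library. Cdkn2b fell against BMP2ADV (log2 fold change -0.50, SE 0.153, adjusted p = 0.0432 by edgeR) and against BMP2ADV148b (-0.57, SE 0.154, adjusted p = 0.0315). Against BMP2ADV20a it was -0.34 (adjusted p = 0.303). The call against BMP2ADV held in 9 of 19 alternatives, and was lost without any single BMP2ADV library (adjusted p of 0.0808, 0.109 and 0.114), without BMP2ADV590 replicate 1 (0.105) or 2 (0.133), and without BMP2ADV20a replicate 3 (0.0505) or BMP2ADV148b replicate 2 (0.0521). The call against BMP2ADV148b was lost without BMP2ADV148b replicate 1 (0.202) or 2 (0.0887) and without BMP2ADV590 replicate 1 (0.0832) or 2 (0.0924).

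Cdkn2c, p18Ink4c (ENSMUSG00000028551, chr4:109660876-109667189, minus strand), did not follow Cdkn2a and Cdkn2b past the threshold. Its BMP2ADV590 libraries were at 33.1, 29.4 and 21.5 CPM, which covers the 24.6 ± 1.20 CPM of BMP2ADV (log2 fold change 0.19, 95% interval -0.10 to 0.49, adjusted p = 0.492 by edgeR). Its share of the summed Cdkn2a, Cdkn2b and Cdkn2c counts was 37.8% ± 3.60 in BMP2ADV590 and 27.9% ± 0.780 in BMP2ADV. This sum leaves out Cdkn2d, a further INK4 gene, at 51.4 ± 5.02 CPM in BMP2ADV590 and 58.3 ± 6.09 CPM in BMP2ADV. The lowest BMP2ADV590 library, at 33.6%, was just above the highest of the other 9, at 33.3%. That separation covers only the shares without Cdkn2d.

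The promoters of Cdkn2a and Cdkn2b are shown because both genes of this locus were called as lower in BMP2ADV590. Each is the RefSeq window on GRCm38.p6 from 250 bases before to 50 after a start, on the minus strand, with motif matches in capitals. The first Cdkn2a window is chr4:89282143-89282442, the second chr4:89294570-89294869, and that of Cdkn2b chr4:89310983-89311282.
Cdkn2a, downstream start: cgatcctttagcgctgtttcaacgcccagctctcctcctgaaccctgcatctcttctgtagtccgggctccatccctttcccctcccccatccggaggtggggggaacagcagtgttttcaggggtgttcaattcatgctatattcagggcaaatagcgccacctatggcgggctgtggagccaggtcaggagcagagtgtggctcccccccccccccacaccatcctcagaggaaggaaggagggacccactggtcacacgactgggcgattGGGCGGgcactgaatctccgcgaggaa
Cdkn2a, upstream start: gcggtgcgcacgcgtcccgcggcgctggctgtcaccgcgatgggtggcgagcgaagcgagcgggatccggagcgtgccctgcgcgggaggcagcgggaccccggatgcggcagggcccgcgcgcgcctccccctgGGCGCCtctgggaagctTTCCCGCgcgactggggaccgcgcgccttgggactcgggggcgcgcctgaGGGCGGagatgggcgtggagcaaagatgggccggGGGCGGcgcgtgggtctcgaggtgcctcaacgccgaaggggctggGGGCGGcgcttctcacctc
Cdkn2b: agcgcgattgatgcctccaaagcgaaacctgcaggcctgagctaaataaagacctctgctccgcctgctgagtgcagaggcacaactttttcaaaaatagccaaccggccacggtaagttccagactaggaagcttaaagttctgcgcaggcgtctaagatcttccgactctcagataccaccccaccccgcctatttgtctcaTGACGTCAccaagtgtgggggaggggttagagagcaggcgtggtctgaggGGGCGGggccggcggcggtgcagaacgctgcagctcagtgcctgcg
Both strands were searched for 7 motifs, and no matches overlap in these 3 windows. The GC box GGGCGG was in all 3, and in 35.7% of the 32851 promoter windows. The cyclic AMP response element TGACGTCA was in that of Cdkn2b and in 1.79% of windows. The E2F motif GCGGGAA, on the other strand, was in the upstream Cdkn2a window and in 4.60% of windows, and GGCGCC, a GC-rich Smad motif, in the same window and in 11.9%. The AP-1 motif TGANTCA, present in 7.81% of windows, had no match in these. Neither did the E box CACGTG, which 7.15% of windows hold. The TATA box TATAAA, in 13.6% of windows, was likewise without a match here.

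Of the CIP/KIP inhibitors, Cdkn1b, p27 (ENSMUSG00000003031, chr6:134920401-134925513, plus strand), varied widely within groups. It stood at 68.9, 79.3 and 48.0 CPM in BMP2ADV and at 94.5, 61.1 and 64.5 CPM in BMP2ADV590, groups that overlap (log2 fold change 0.17, 95% interval -0.17 to 0.50, adjusted p = 0.624 by edgeR). Cdkn1c, p57 (ENSMUSG00000037664, chr7:143458339-143461050, minus strand), an imprinted gene expressed from the maternal allele, had 1 count in BMP2ADV, 0 with BMP2ADV20a, 2 with BMP2ADV148b and 1 for BMP2ADV590. The 0 of BMP2ADV20a allows up to 3 counts over the group, or 0.0782 CPM, for counting error only. No fold change is given for it.

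None of the 9 tested genes passed the test when BMP2ADV20a or BMP2ADV148b was set against the reference. In BMP2ADV20a against BMP2ADV, 0 of 9 were called by edgeR, DESeq2 and limma-voom, where edgeR called 0.476% of all tested genes. At an unadjusted p under 0.05, met by 9.87% of all genes in edgeR, each tool gave 1, Cdk4, whose log2 fold change was 0.28 (SE 0.108, adjusted p = 0.368 by edgeR). Ccnd1, which holds a miR-20a-5p site, was at -0.08 with a 95% interval of -0.26 to 0.10, and Ccnd2, which holds another, at 0.11 (-0.03 to 0.26). In BMP2ADV148b against BMP2ADV, 0 of 9 were called by the same tools, with 0.249% of all genes called by edgeR. The single gene with an unadjusted p under 0.05, met by 8.43% of all genes in edgeR, was Cdkn2a in each tool, at -0.29 (SE 0.125, adjusted p = 0.515 by edgeR). Between BMP2ADV148b and BMP2ADV20a, 0 of 9 were called and 0 had an unadjusted p under 0.05 in any of the 3 tools, with 0.559% of genes called by edgeR and 7.79% at an unadjusted p under 0.05.

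Between BMP2ADV590 and the other hybrids the counts of lower genes were like that against the reference. Against BMP2ADV20a, 3 of 9 fell (Ccnd1, Ccnd2 and Ccnd3) and 0 rose, with 2.17% of all tested genes called, 0.877% as lower and 1.29% as higher. That share changed when single libraries were left out. Of all genes 287 were called with every library, and 64, 85 and 256 without BMP2ADV20a replicates 1, 2 and 3. Without BMP2ADV590 replicates 1, 2 and 3 the calls were 150, 489 and 147. Against BMP2ADV148b, 3 of 9 fell (Ccnd1, Ccnd3 and Cdkn2b) and 0 rose, with 4.42% called, 1.97% as lower and 2.45% as higher. With all 4 groups tested at once, 3 of 9 were called where 6.25% of genes were: Ccnd1 (adjusted p = 4.30e-05), Ccnd3 (0.031) and Cdkn2a (0.0489) by edgeR. The Cdkn2a call in this test held in 5 of 18 alternatives, and its adjusted p was highest, at 0.207, without BMP2ADV590 replicate 3. That of Ccnd3 held in 12 of 18, with a highest adjusted p of 0.138 without the same library. Ccnd2, at 0.0767, passed with DESeq2 (0.0038) and limma-voom (0.0382).

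**Figure D4:**
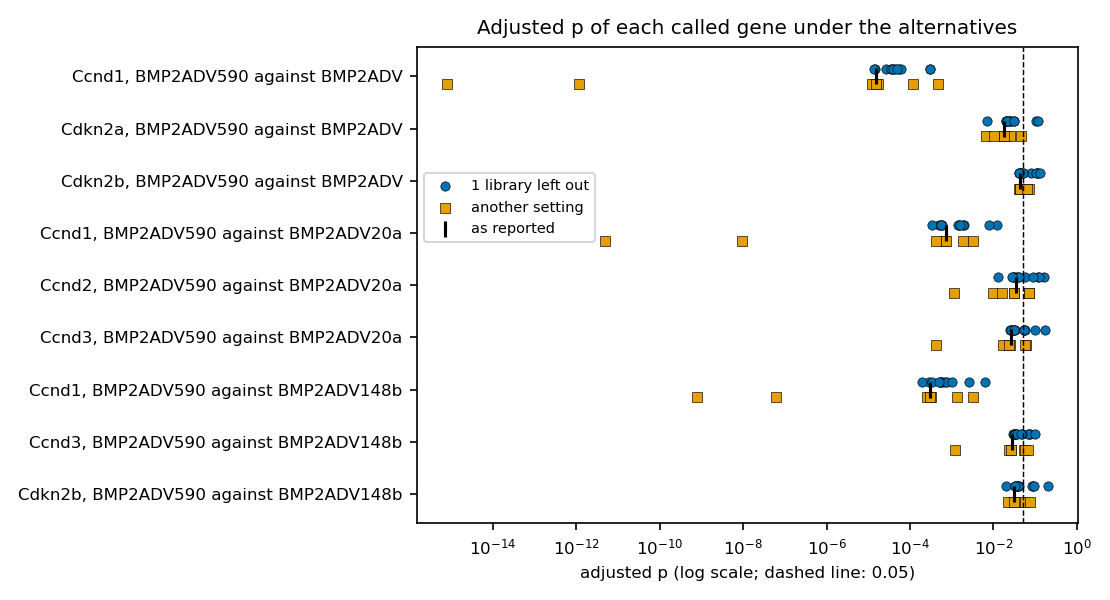
Adjusted p (horizontal axis, log scale, dashed line at 0.05) of the 9 calls in comparisons of 2 groups, under the reported fit and 19 alternatives. Ccnd1 stays left of the line in its 3 comparisons, with a highest adjusted p of 0.0123, and each other call crosses it in at least 1 alternative.

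The wider G1/S machinery was described with 35 other genes, of which 33 were tested. In BMP2ADV590 against BMP2ADV, 2 of 33 fell and 0 rose, against the 8.26% called among all genes, with a median log2 fold change of -0.06. DESeq2 called 3 of these genes, with 1217 of 24197 called over all genes, and limma-voom 1, with 1066 of 13229 over all genes. By edgeR 9 had an unadjusted p under 0.05. The share of all genes at that level was not computed for this comparison, so that count has nothing to be set against. Ccna2, cyclin A2, which drives S phase with CDK2, was at 94.3 ± 11.9 CPM in BMP2ADV590 and 124 ± 13.9 in BMP2ADV (log2 fold change -0.39, SE 0.101, adjusted p = 0.0159 by edgeR). Skp2, the substrate receptor of the ubiquitin ligase that degrades p27, was at 22.4 ± 3.14 and 31.9 ± 4.40 CPM (-0.51, SE 0.154, adjusted p = 0.0422). The call of Ccna2 was lost without BMP2ADV replicates 2 (adjusted p = 0.0967) and 3 (0.0764) and without BMP2ADV590 replicates 1 (0.0534) and 2 (0.0631). That of Skp2 was lost without BMP2ADV replicates 1 (0.0897) and 3 (0.205), BMP2ADV590 replicates 1 (0.0695) and 3 (0.186) and BMP2ADV20a replicates 2 (0.0542) and 3 (0.0513). By edgeR the pocket proteins, which bind E2F factors, gave 0 of 3 called, the E2F and DP factors 0 of 9, the CDK-activating kinase 0 of 3 and the Myc family 0 of 2. Among the E2F factors, E2f7 and E2f6, named after their values were seen, passed in some alternatives. E2f7 was at -0.36 (adjusted p = 0.0561 by edgeR), with 0.0494 by DESeq2, 0.0399 without BMP2ADV replicate 1 and 0.0457 without BMP2ADV590 replicate 3. E2f6 was at -0.49 (adjusted p = 0.0641 by edgeR), with 0.0314 without BMP2ADV148b replicate 1 and 0.0426 without BMP2ADV590 replicate 1.

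In the other comparisons of these 33 genes by edgeR, 0 were called in BMP2ADV20a, in BMP2ADV148b, between them and in BMP2ADV590 against BMP2ADV20a. At an unadjusted p under 0.05 there were 5, 3, 2 and 8. That level was met by 9.87%, 8.43% and 7.79% of all tested genes in the comparisons without BMP2ADV590, and its share was not computed for the last. DESeq2 and limma-voom also called 0 in each. The shares of all tested genes called by edgeR in these comparisons were 0.476%, 0.249%, 0.559% and 2.17%. Myc, a transcription factor that promotes entry into the cycle, is named here after its values were seen. It was at 18.2, 12.8 and 15.3 CPM in BMP2ADV and at 5.66, 7.32 and 9.92 CPM in BMP2ADV20a, without overlap (log2 fold change -1.03, SE 0.288, adjusted p = 0.144 by edgeR). It passed with no low-count filter (adjusted p = 0.000188), with only those groups in the fit (0.00737) and without BMP2ADV590 replicate 2 (0.00506). In BMP2ADV590 its libraries were spread, at 15.01, 5.01 and 17.2 CPM, and against BMP2ADV20a its log2 fold change was 0.71 (adjusted p = 0.245 by edgeR), with 0.0267 without the filter and 0.00342 without replicate 2. In BMP2ADV590 against BMP2ADV148b, where 4.42% of all tested genes were called and 2.45% as higher, 1 of 33 rose by edgeR: Skp1a, a core subunit of SCF ubiquitin ligases, at 302 ± 18.0 against 251 ± 8.45 CPM (log2 fold change 0.26, SE 0.0722, adjusted p = 0.0363 by edgeR). That call held in 8 of 19 alternatives, with a highest adjusted p of 0.191 without BMP2ADV148b replicate 1. DESeq2 called 2 of the 33 here, and 718 of 24197 over all genes. The other of the 2 was Skp2, which was lower (-0.52, adjusted p = 0.0474 by DESeq2 and 0.0602 by edgeR).

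Markers of cycling cells were also examined. All 7 examined had negative log2 fold changes in BMP2ADV590 against BMP2ADV, from -0.31 to -0.05 with a median of -0.25, and 1 of them fell by edgeR, where 8.26% of all tested genes were called: Top2a, the topoisomerase of dividing cells, at 249.8 ± 22.8 against 304 ± 11.6 CPM (-0.28, SE 0.0807, adjusted p = 0.0295 by edgeR). The call was lost without BMP2ADV replicates 2 (adjusted p = 0.069) and 3 (0.127) and without BMP2ADV590 replicates 1 (0.0847) and 3 (0.138). DESeq2 called 3 more of the 7 as lower, Mcm2 (adjusted p = 0.0396), Mki67 (0.0428) and Cdk1 (0.0371), for which edgeR gave 0.0529, 0.0632 and 0.0923. Over all tested genes the median log2 fold change against BMP2ADV was 0.00195. Against BMP2ADV20a and BMP2ADV148b, 6 of the 7 markers were negative in BMP2ADV590, with a median of -0.21 in each comparison. Pcna was the positive one, at 0.13 and 0.12, and its BMP2ADV590 libraries ran from 55.0 to 83.6 CPM. The part of cell cycling in the lower Ccnd1, Cdkn2a and Cdkn2b was not tested.

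**Figure D5:**
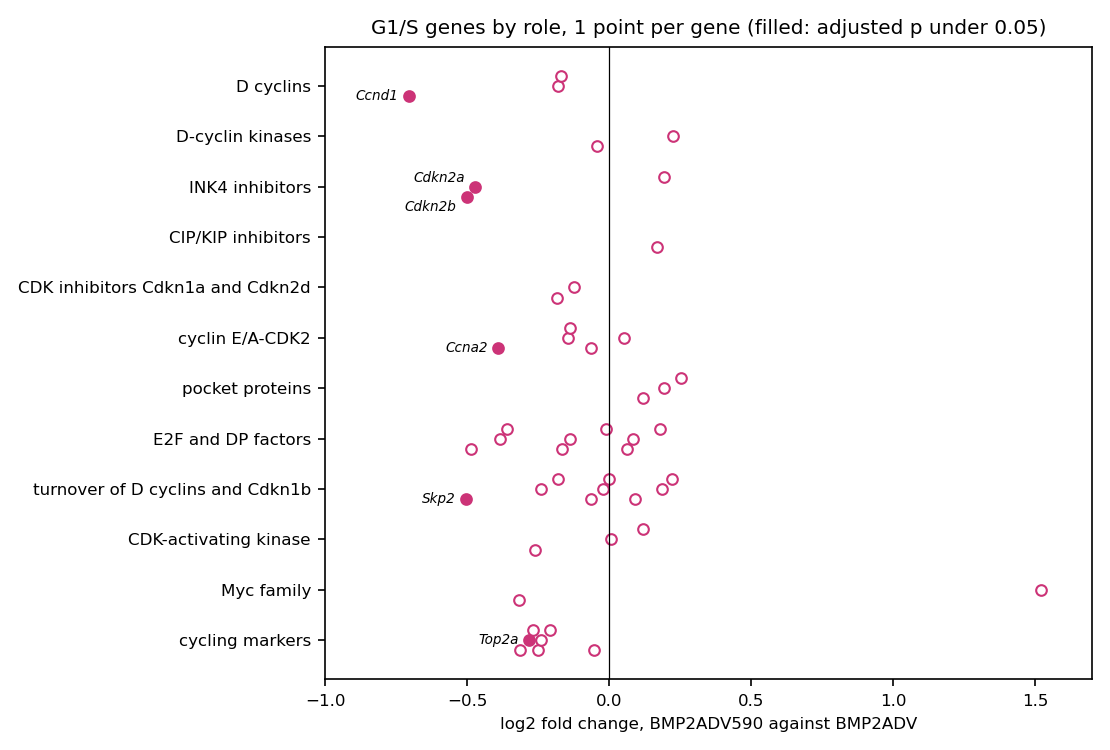
Log2 fold change of BMP2ADV590 against BMP2ADV (horizontal axis) for every tested G1/S gene and cycling marker, by role (vertical axis). Filled points have an adjusted p under 0.05; Ccnd1, at -0.70, is the lowest of them, and all 7 cycling markers lie below 0.

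Genes whose pattern was most like that of a cyclin or inhibitor were taken as those with the smallest root mean square difference of centred log2 CPM over the 12 libraries, among 11628 named genes. For Ccnd1 these were Flnc (0.101), Timeless (0.113) and Hells (0.114), where the median gene was at 0.357. For Ccnd3 they were Tubgcp2 (0.0499), Ssrp1 (0.0528) and Commd7 (0.0569), with a median of 0.227. For Cdkn2a they were Snrpc (0.128), Kif22 (0.132) and Alas1 (0.132), with a median of 0.302. The points share libraries and depth, so these values describe the 12 libraries and carry no test.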

How the data were processed

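RNA of 12 libraries was prepared by the QuantSeq 3' FWD kit, whose reads lie near transcript 3' ends. Per the submitters' processing notes, which name FastQC 0.11.5, STAR 2.5.2a, HTSeq 0.6.0 and GRCm38, the deposited values are raw counts per gene without normalisation, 1 file per library. The notes also name DESeq2. No source used here gives the strand setting or counting mode. Records without a gene, 52.2% to 54.4% of each library, were left out of totals. They were 52.24% to 52.65% in BMP2ADV590 and 52.90% to 54.43% in the other groups. Mitochondrial genes made up 1.90% to 2.32% of gene counts in BMP2ADV590 and 1.68% to 1.96% in the other groups. Gm42418 alone took 4.07% to 10.04% of gene counts over the libraries, and 4.99% to 8.99% in BMP2ADV590. The part of library composition in the differences was not tested. Symbols came from GENCODE M21 (47224 of 47643 identifiers matched).

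From the counts, 1 model of 4 group means was fitted with edgeR 4.0.16 in R 4.3.3 (TMM scaling, filterByExpr, quasi-likelihood F-test). In all 13229 genes were tested. The common biological coefficient of variation was 0.117. The steps were tested on simulated data. Alternatives used DESeq2 1.42.0, limma 3.58.1, RLE scaling, no filter, a replicate block, totals without Gm42418, only the 2 groups compared, and each library left out. Intervals are 95% intervals of the fit. Floors of 3 counts cover counting error only.

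The genes followed and all lists were chosen with earlier results of these data known. Named were the 10 genes, genes called in the other lists, and the 3 genes most like each of the 3 with the smallest p over all groups. E2f6, E2f7, Myc, Cdkn1a and Cdkn2d were named after their values were seen. Seed sites were searched in the longest GENCODE 3' UTR, promoters in RefSeq windows, which were given for 7 of the 10 genes.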

Additional observations from a re-analysis of the deposited data

How the results depend on the processing

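Of 1102 values of single genes under the alternatives, 31 changed sign, none of them called in either fit and each at most 0.20 in size on the log2 scale. With a replicate block, 1 gene was called in BMP2ADV590 against BMP2ADV20a, 1 against BMP2ADV148b and 1 over all 4 groups, where 3 were called without it. With only the 2 groups compared in the fit, 1 was called in each of those 2 comparisons. Leaving out 1 library gave 1 to 3 called genes in BMP2ADV590 against each of the 3 other groups, 1 to 2 over all 4 groups, and 0 to 0 in the comparisons without BMP2ADV590. Over all genes the same fits called 565 to 1115 in BMP2ADV590 against BMP2ADV, 64 to 489 against BMP2ADV20a, 241 to 656 against BMP2ADV148b and 548 to 891 over all 4 groups, where 1093, 287, 585 and 827 were called with every library. The calls against BMP2ADV were 678 and 565 without BMP2ADV replicates 2 and 3, and those against BMP2ADV148b 241 and 353 without BMP2ADV148b replicates 1 and 2 and 383 without BMP2ADV590 replicate 3. Other fits without 1 library called more genes than the full fit, up to the 1115, 489, 656 and 891 given above. The cause of these differences was not tested. Deviations from the group means correlated at -0.113 to 0.0715 over 18 pairs of same-numbered libraries from different groups, with 0 above 0.1. Over 36 pairs with different numbers the range was -0.0905 to 0.115, with 1 above 0.1. Low correlations cannot exclude shared cultures or batches, so whether the replicate numbers mark pairs stays unsettled. Over all genes the block moved the calls of BMP2ADV590 against BMP2ADV from 1093 to 905, and against BMP2ADV20a from 287 to 172. No low-count filter gave 184 calls in BMP2ADV20a and 126 in BMP2ADV148b against BMP2ADV, where 63 and 33 were made with it. DESeq2 gave 107 and 85. At 4 counts in all, Cdkn1c was too shallow for any comparison.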
